A study of Mus musculus with 7 samples.

Results

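Chemokines are small secreted proteins that guide leukocytes, and chemokine receptors are the G protein-coupled receptors through which cells sense them. The genes described here were chosen by name: every protein-coding Ensembl gene whose GENCODE M21 symbol is that of a Ccl or Cxcl ligand, Cx3cl1, Xcl1, or a receptor of the Ccr, Cxcr, Cx3cr1 or Xcr1 kind, apart from Ccl19, Ccl21a and Cxcl13. This gave 58 of the 46603 genes in the count files, 39 ligands and 19 receptors, under 55 symbols, with 5 of the genes on unplaced scaffolds. They were compared between 3 pieces of tumor from KO cells and 4 pieces of tumor from KO + NM1 cells. KO cells are mouse embryonic fibroblasts in which nuclear myosin 1 (NM1), an isoform of Myo1c, was deleted with CRISPR/Cas9. For KO + NM1, those cells received NM1 again, tagged with HA and V5, from a lentivirus and were kept as neomycin-selected clones, so both groups carry the deletion. Both were injected under the skin of female Balb/c nude mice aged 16 weeks, and the labels give day 30 for the end of the experiment. The labels place the injection at the flank, while the text of the study also names the mammary pad. Nude mice have almost no thymus and therefore few T cells, while their B cells, NK cells and myeloid cells remain. The labels write of a single tumor per condition that was cut up, so the pieces are not separate animals and every p-value here measures the spread between pieces, which may be technical.

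Ligands are grouped mostly by the receptor they act on. Cxcl9 and Cxcl10 are induced by interferon-gamma and act on Cxcr3, which is found on activated T cells and NK cells. Ccl2, Ccl7 and Ccl12 recruit monocytes, mainly through Ccr2, and Ccl3, Ccl4 and Ccl5 draw macrophages and effector lymphocytes. Ccl8 was listed with the CCR2 ligands beforehand, but whether mouse Ccl8 acts through Ccr2 was not tested. Cxcl12, made by stromal cells, and its receptor Cxcr4 hold cells in tissues such as the bone marrow, and Ccr7 and Cxcr5 place lymphocytes and dendritic cells within lymph nodes.

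Total counts ran from 24088309 to 28326568 per piece, and levels are given as CPM, read counts scaled to the same TMM-corrected library size in every piece. A count of 3, the floor used for genes without counts, was worth 0.0989 to 0.148 CPM, which covers counting error only. Myo1c, the gene that holds NM1, changed by -0.43 on the log2 scale (KO over KO + NM1, standard error, SE, 0.13, adjusted p = 0.0311). The adjusted p was 0.126 with the piece number as a block and reached 0.295 in another fit. Counts per gene do not separate its isoforms or the injected cells from the host. KO + NM1 piece 01 stood apart: across genes its log2 CPM correlated with the other KO + NM1 pieces at 0.855 to 0.861, against 0.977 to 0.986 among those pieces. The fibroblast markers fixed for the tissue check (Col1a1, Col1a2, Pdgfra, Pdgfrb, Dcn and Lum) were present in all pieces. By the rule given below, 4 of the 6 were lower in KO, as were 20.3% of all genes tested. Col1a1 and Col1a2 did not pass it, with log2 fold changes of 1.42 and 0.39. Col1a1 was above KO + NM1 in every KO piece and passed as higher without KO + NM1 piece 01 (1.02, adjusted p = 0.0204). White adipocyte markers summed to 695 to 5840 CPM in KO + NM1 and 1.3 to 23.0 CPM in KO, and skeletal muscle markers to 3.2 to 22.2 CPM and 1700 to 15500 CPM. Whether this RNA came from tissue other than tumor was not tested. In such bulk samples a larger number of cells of a type and more RNA per cell cannot be told apart.

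Both tested CXCR3 ligands, Ccl2, Ccl7, Ccl8, Ccl12, Ccl3, Ccl4 and the receptors Ccr1, Ccr2 and Cx3cr1 were higher in the KO tumor. Cxcl12, Cxcl15, Cxcl17, Cx3cl1, the 2 tested eotaxins and Ccr10 were lower there. Of the 58 genes, 41 passed the filter on low counts. Genes were called when the adjusted p was under 0.05 and the difference reached 2-fold. By this rule 12 of the 41 were higher in KO (29.3%, against 17.1% of all genes tested) and 7 were lower (17.1%, against 20.3% of all genes tested), together 19 where 37.3% of all genes tested were called in either direction. The adjusted p alone gave the same 12 and 7, where 50.2% of all genes tested passed it. Among the 27 tested ligands 8 were higher and 6 lower, and among the 14 tested receptors 4 were higher and 1, Ccr10, was lower. The groups did not overlap for 22 of the 41 genes (53.7%, against 57.0% of all genes tested), with KO above in 14 (34.1%, against 30.5%) and below in 8 (19.5%, against 26.4%). The median log2 fold change of the 41 genes was 0.04, beside a median of 0.00 over all genes tested. Leaving out KO + NM1 piece 01 changed this picture: 20 of the 38 genes then tested were higher (21.7% of all genes tested) and 10 were lower (25.1% of all genes tested), with a median of 2.09, where 46.8% of all genes tested were called in either direction. The 12 and 7 genes called with all pieces were all called again in the same direction, and the 8 added to the higher genes were Ccl5, Cxcl16, Xcl1, Ccr7, Ccr9, Cxcr3, Cxcr6 and Xcr1, while Ccl27a, Ccl28 and Cxcl14 joined the lower ones.

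**Figure D1:**
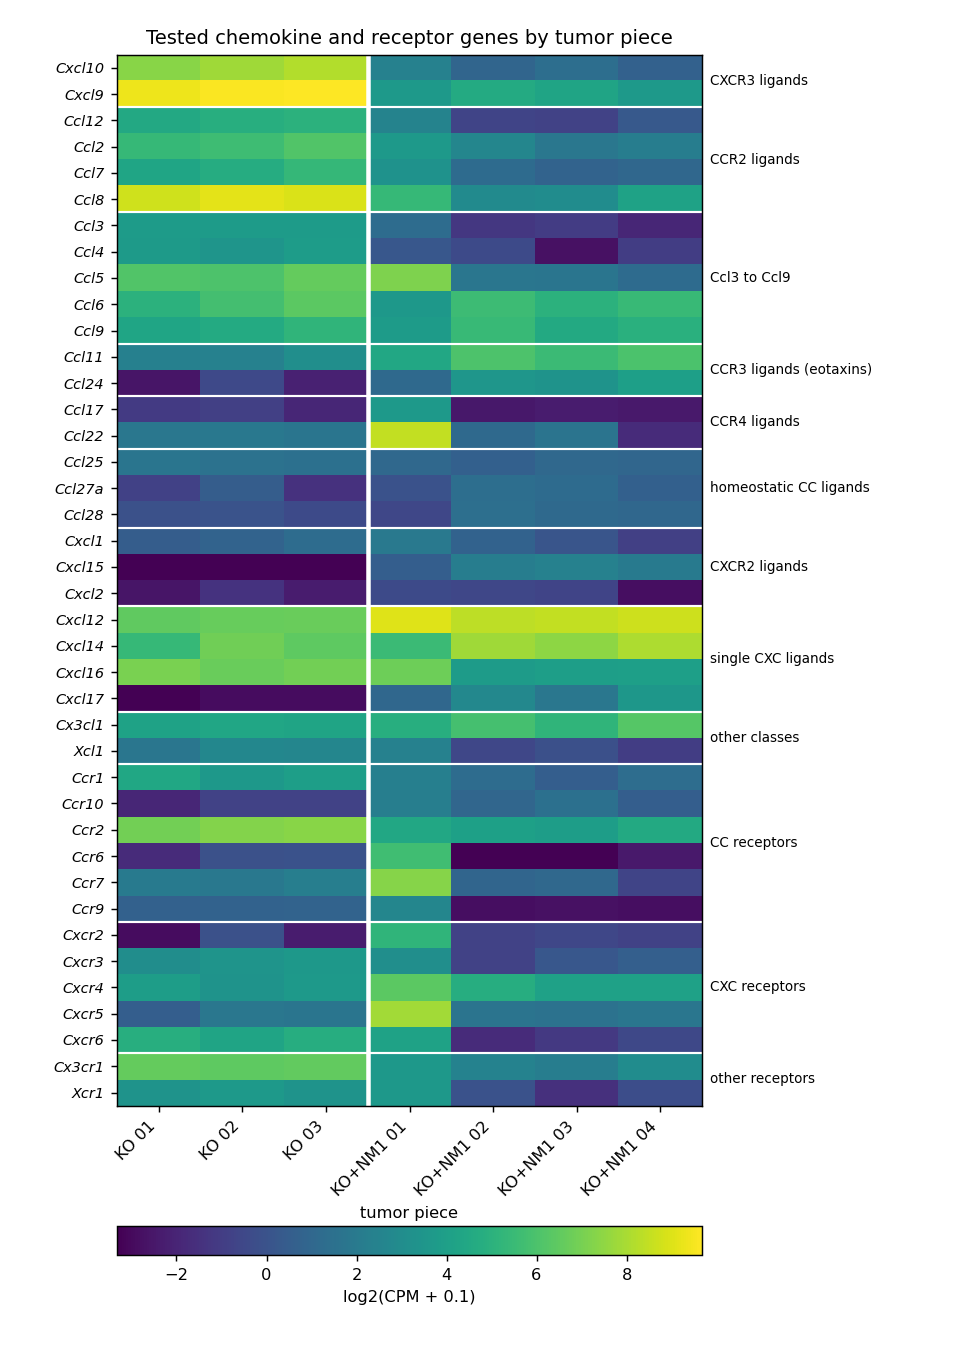
Level of 40 of the 41 tested genes (rows, ordered by ligand or receptor group) in each of the 7 tumor pieces (columns), as log2(CPM + 0.1). Cxcl9, Cxcl10 and Ccl8 are brightest in the KO pieces, and Ccl22, Ccr7, Cxcr5, Ccr6 and Cxcr2 are bright in KO + NM1 piece 01 and dark in the other pieces.

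Both tested CXCR3 ligands were far higher in KO. Cxcl9 (ENSMUSG00000029417, chromosome 5, 92321347 to 92328079, minus strand) reached 642, 785 and 818 CPM in KO pieces 01 to 03 and 12.5, 24.5, 19.5 and 12.4 CPM in KO + NM1 pieces 01 to 04. Every KO piece lay far above every KO + NM1 piece, and piece 01 was as low as the others. The means were 748 ± 93.3 CPM (SD, n = 3) and 17.2 ± 5.86 CPM (SD, n = 4), a log2 fold change of 5.44 (SE 0.28, adjusted p = 0.00022). Cxcl10 (ENSMUSG00000034855, chromosome 5, 92346638 to 92348889, minus strand) had 166, 225 and 287 CPM in KO and 5.17, 1.79, 2.52 and 1.52 CPM in KO + NM1, a log2 fold change of 6.35 (SE 0.44, adjusted p = 0.000351). This was the largest rise in KO among the tested members, again without overlap. Its annotated exons overlap those of Art3 on the opposite strand, and the strand setting of the counting is not stated, so reads of both genes there may have been counted together or left out. Cxcr3, their receptor, had 8.29, 10.6 and 12.2 CPM in KO and 8.34, 0.487, 1.04 and 1.44 CPM in KO + NM1. Piece 01 lay within the KO range while the other KO + NM1 pieces lay well under it. With all pieces Cxcr3 had a log2 fold change of 1.87 (SE 0.91, adjusted p = 0.127), and without piece 01 it was higher in KO by 3.26 (adjusted p = 0.000331). Cxcl11 was not among the members found by the rule.

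Beside these ligands stand the start regions of Cxcl9, Cxcl10 and Ccl8, the 3 rises in KO with the highest level per length, and of Cxcl12, the lower member with the highest level per length, so that the letters can be compared. Each is the RefSeq window on GRCm38.p6 from 250 bases before to 50 bases after the gene's start, written in the direction of the gene. Capitals mark matches, on either strand, to the NF-kB consensus (kB), to the interferon-stimulated response element (ISRE, GAAA, any 2 bases and GAAA), or to TTCNNNGAA, the letters of a gamma-activated site (GAS).
Cxcl9, chr5:92328030-92328329, minus strand: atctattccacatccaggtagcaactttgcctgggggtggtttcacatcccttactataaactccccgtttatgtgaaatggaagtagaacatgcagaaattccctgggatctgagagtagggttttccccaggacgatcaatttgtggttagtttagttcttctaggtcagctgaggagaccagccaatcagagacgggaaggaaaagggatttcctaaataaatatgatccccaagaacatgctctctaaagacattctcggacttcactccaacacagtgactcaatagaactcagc
Cxcl10, chr5:92348840-92349139, minus strand: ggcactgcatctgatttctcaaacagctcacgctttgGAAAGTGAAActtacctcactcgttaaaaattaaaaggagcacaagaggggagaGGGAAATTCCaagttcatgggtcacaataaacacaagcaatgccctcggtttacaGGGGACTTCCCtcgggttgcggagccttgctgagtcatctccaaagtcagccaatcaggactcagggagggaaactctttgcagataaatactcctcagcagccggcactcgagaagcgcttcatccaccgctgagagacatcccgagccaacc
Ccl8, chr11:82114935-82115234, plus strand: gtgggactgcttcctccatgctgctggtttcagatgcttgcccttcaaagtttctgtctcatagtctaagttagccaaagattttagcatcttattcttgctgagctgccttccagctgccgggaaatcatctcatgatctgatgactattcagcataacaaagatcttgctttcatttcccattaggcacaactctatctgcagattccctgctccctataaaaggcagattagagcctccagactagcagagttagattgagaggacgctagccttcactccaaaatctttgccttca
Cxcl12, chr6:117168285-117168584, plus strand: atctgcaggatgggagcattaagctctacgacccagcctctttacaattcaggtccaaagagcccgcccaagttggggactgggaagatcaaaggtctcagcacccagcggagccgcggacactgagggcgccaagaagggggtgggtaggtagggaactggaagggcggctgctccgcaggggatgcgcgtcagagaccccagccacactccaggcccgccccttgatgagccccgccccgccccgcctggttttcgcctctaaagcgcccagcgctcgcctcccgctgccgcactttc
The Cxcl10 window held 1 ISRE match, GAAAGTGAAA, whose first base lay 213 bases before the start, and kB matches at 159, 104 and 103 bases before it, where the last 2 overlap. The windows of Cxcl9, Ccl8 and Cxcl12 held none of these letters, which says nothing of other forms of the sites or of sites further away. Windows were found for 39 of the 55 member symbols, 46 windows in all. A kB match stood in 11 of the 46 (23.9%, against 9.25% of the 21263 windows of protein-coding genes), an ISRE match in 2 (4.35%, against 3.35%) and a GAS match in 4 (8.7%, against 7.69%). Cxcl1, Cxcl2 and Cxcl3, neighbors on chromosome 5 that attract neutrophils, share the same kB letters, GGGAATTTCC, at 71, 97 and 73 bases before their starts.

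Ccl2, Ccl7, Ccl8 and Ccl12 were all higher in KO. Ccl8 (ENSMUSG00000009185, chromosome 11, 82115185 to 82116799, plus strand) had 433, 556 and 496 CPM in KO and 41.1, 7.43, 7.84 and 17.6 CPM in KO + NM1, a log2 fold change of 4.74 (SE 0.60, adjusted p = 0.00156). Ccl2, the classic monocyte attractant, had 42.0, 50.3 and 71.3 CPM against 13.2, 6.26, 3.5 and 4.47 CPM, a log2 fold change of 2.99 (SE 0.47, adjusted p = 0.00256). In both genes piece 01 was the highest KO + NM1 piece yet stayed under all KO pieces. Ccl12 was at 22.9, 27.8 and 33.1 CPM in KO and 5.54, 0.528, 0.493 and 1.15 CPM in KO + NM1, and its log2 fold change was 3.84 (SE 0.84, adjusted p = 0.0105). For Ccl7 the KO pieces had 19.7, 26.1 and 40.0 CPM and the KO + NM1 pieces 9.61, 2.23, 1.63 and 1.93 CPM, a log2 fold change of 2.89 (SE 0.68, adjusted p = 0.0124). None of the 4 overlapped between the groups, but the call of Ccl7 was lost without KO piece 03 (adjusted p = 0.0506) and with the piece number as a block (adjusted p = 0.0594). Ccr2, which marks inflammatory monocytes, is the receptor of Ccl2, Ccl7 and Ccl12 and moved with them. It had 119, 152 and 167 CPM in KO and 22.1, 16.4, 15.0 and 23.8 CPM in KO + NM1. The mean was 146 ± 24.8 CPM (SD, n = 3) against 19.3 ± 4.25 CPM (SD, n = 4), a log2 fold change of 2.92 (SE 0.21, adjusted p = 0.000292), and here piece 01 lay among the other KO + NM1 pieces.

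The inflammatory CC ligands Ccl3, Ccl4, Ccl5, Ccl6 and Ccl9 were split. Ccl3 was at 14.0, 13.8 and 13.7 CPM in KO, nearly the same in each piece, and at 2.33, 0.325, 0.395 and 0.164 CPM in KO + NM1, a log2 fold change of 4.09 (SE 0.83, adjusted p = 0.00777). Ccl4, its close relative and neighbor, had 13.3, 11.0 and 14.4 CPM against 1.06, 0.65, 0.0493 and 0.41 CPM, a log2 fold change of 4.54 (SE 0.69, adjusted p = 0.00262). Both were higher in KO without overlap. Ccl5, a product of activated T cells, NK cells and macrophages, had 70.4, 67.0 and 96.7 CPM in KO and 143, 3.33, 3.21 and 2.26 CPM in KO + NM1. Piece 01 exceeded every KO piece while the other 3 KO + NM1 pieces were far below. The log2 fold change of Ccl5 was therefore 1.04 (SE 1.47, adjusted p = 0.582) with all pieces and 4.61 (adjusted p = 8.52e-06) without piece 01. Ccl6 and Ccl9, which mouse myeloid cells make in the resting state too, did not pass the test. Ccl6 had 32.9, 54.9 and 83.6 CPM in KO and 12.3, 48.8, 32.3 and 42.6 CPM in KO + NM1, so the groups overlapped (adjusted p = 0.243), and Ccl9 had a log2 fold change of -0.03 (SE 0.40).

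Receptors of monocytes and macrophages were higher in every KO piece than in any KO + NM1 piece. Ccr1, a receptor for Ccl3 and Ccl5, had 21.4, 12.3 and 15.7 CPM against 4.84, 2.32, 1.38 and 2.38 CPM, a log2 fold change of 2.59 (SE 0.44, adjusted p = 0.0033). Cx3cr1, the receptor of patrolling monocytes and many tissue macrophages, had 97.0, 88.8 and 92.2 CPM in KO and 12.1, 5.24, 4.49 and 8.0 CPM in KO + NM1. Its log2 fold change was 3.63 (SE 0.34, adjusted p = 0.000542). Both receptors, like Ccr2, stayed called without piece 01. Macrophage markers moved with them: 4 of the 6 listed (Adgre1, Cd68, Csf1r and Mrc1) were higher in KO, as were 17.1% of all genes tested. Cd163 and Lyz2 were not called, and none of the 6 was at 0. The 6 summed to 1690 to 1920 CPM in KO and to 2220, 576, 464 and 650 CPM in KO + NM1 pieces 01 to 04. Lyz2 alone gave 885 to 1020 CPM of the KO sums and 1890 CPM of the sum in piece 01. The 4 called markers were lower in piece 01 than in every KO piece. Mrc1 was not called without piece 01, Cd163 then was lower and Lyz2 higher. The part of macrophage content in the receptor and ligand levels was not tested.

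Cx3cl1, the membrane-bound ligand of Cx3cr1, went the other way from its receptor. It had 17.6, 20.5 and 19.1 CPM in KO and 27.8, 56.3, 36.3 and 75.9 CPM in KO + NM1, a log2 fold change of -1.36 (SE 0.34, adjusted p = 0.0162). The groups did not overlap, and the adjusted p was 0.05 without KO piece 01, no longer under the threshold, and 0.189 in the test against a 2-fold change. A second transmembrane ligand, Cxcl16, had 132, 105 and 120 CPM in KO and 112, 13.8, 15.6 and 16.1 CPM in KO + NM1, with piece 01 at the KO level (log2 fold change 1.59, SE 0.79, adjusted p = 0.135, and 2.84 with adjusted p = 6.11e-06 without piece 01). Exons of Zmynd15 overlap it on the opposite strand. Cxcr6, its receptor, found on effector T cells and NK cells, followed the same pattern at 28.4, 19.3 and 27.2 CPM in KO and 17.6, 0.203, 0.345 and 0.616 CPM in KO + NM1. The KO pieces were above all KO + NM1 pieces, but the adjusted p was 0.208 with all pieces and 2.07e-05 without piece 01. Xcl1, made by NK cells and CD8 T cells, and Xcr1, its receptor on cross-presenting dendritic cells, overlapped through piece 01 too. Xcr1 had 10.3, 12.8 and 10.2 CPM in KO and 12.2, 0.853, 0.247 and 0.739 CPM in KO + NM1, and Xcl1 had 3.33, 6.32 and 6.26 CPM and 5.14, 0.569, 0.789 and 0.41 CPM (adjusted p = 0.286 and 0.177 with all pieces, 0.000133 and 0.00044 without piece 01).

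**Figure D2:**
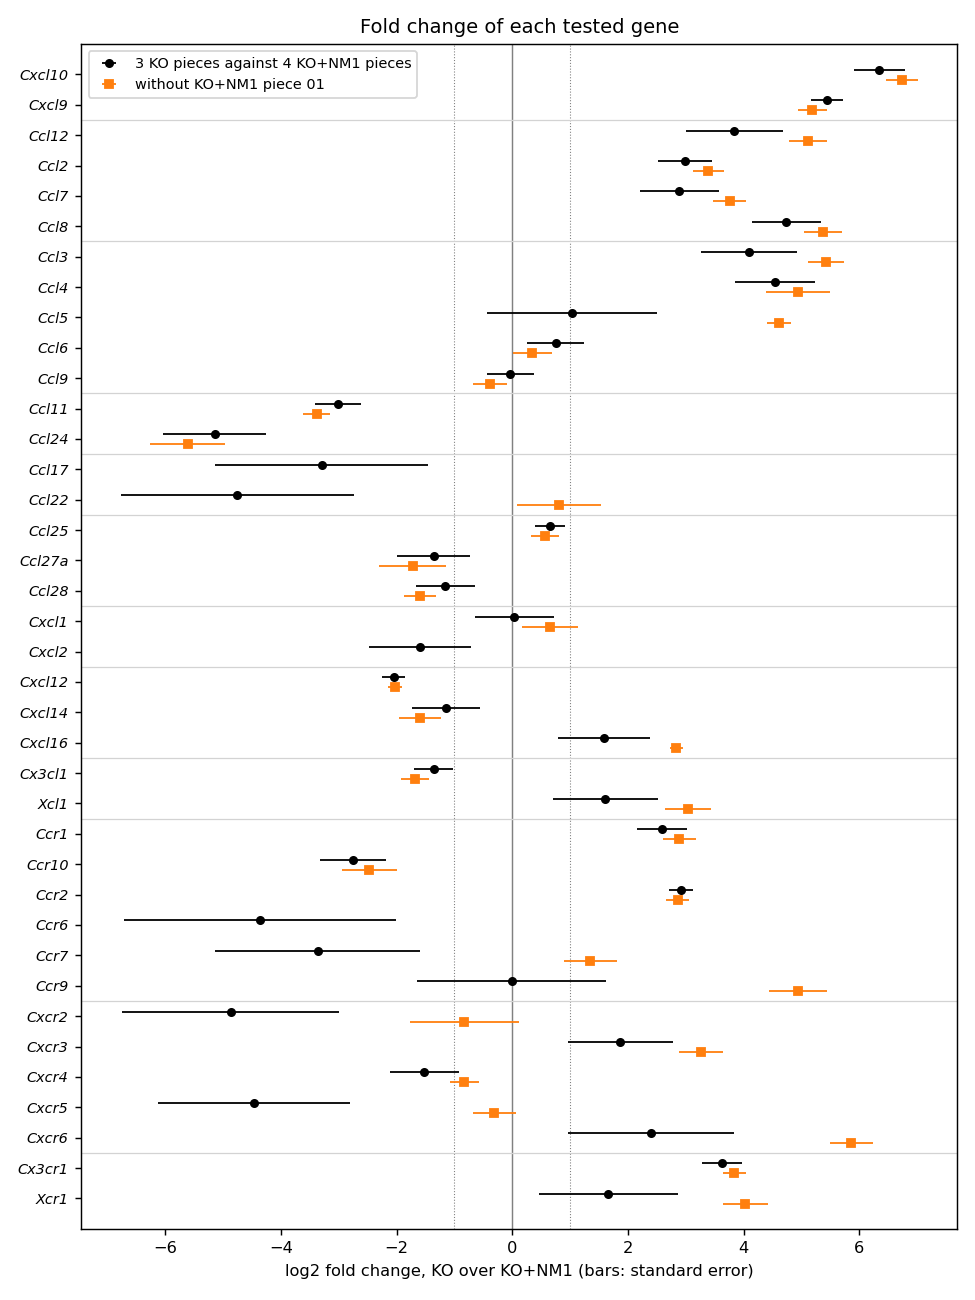
Log2 fold change (KO over KO + NM1) of 38 of the tested genes with its standard error, with all 7 pieces (black) and without KO + NM1 piece 01 (orange, drawn where the gene still passed the filter). Cxcl15 and Cxcl17, with 2 counts or fewer in the KO pieces together, are left out, and dotted lines mark a 2-fold change. Ccl22, Ccr9 and Ccr7 move furthest to the right without piece 01, while Cxcl9, Ccr2 and Cxcl12 hardly move.

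Apart from Cx3cl1, the members lower in KO were Cxcl12, Ccl11, Ccl24, Cxcl15, Cxcl17 and the receptor Ccr10. Cxcl12 (ENSMUSG00000061353, chromosome 6, 117168535 to 117181367, plus strand) had 91.8, 101 and 104 CPM in KO and 534, 334, 354 and 412 CPM in KO + NM1. The KO + NM1 pieces were all at least 3 times above the KO pieces, and the means were 99.0 ± 6.49 CPM (SD, n = 3) and 409 ± 89.9 CPM (SD, n = 4), a log2 fold change of -2.05 (SE 0.20, adjusted p = 0.000616). Its receptor Cxcr4 had 15.2, 10.0 and 12.6 CPM in KO and 83.1, 27.5, 17.0 and 17.0 CPM in KO + NM1. The groups did not overlap, but the change was not called (log2 fold change -1.52, SE 0.60, adjusted p = 0.079) and was -0.83 without piece 01. Cxcl14, a ligand of epithelium and fibroblasts, had 41.2, 116 and 88.5 CPM in KO and 47.1, 226, 180 and 270 CPM in KO + NM1. Piece 01 lay within the KO range, so Cxcl14 was called only without it (log2 fold change -1.14, adjusted p = 0.156, against -1.59 and 0.00619 without piece 01). In the same way the low-level skin and mucosal ligands Ccl27a and Ccl28 had log2 fold changes of -1.36 and -1.16 (adjusted p = 0.118 and 0.101) with all pieces and -1.72 and -1.59 (adjusted p = 0.0322 and 0.00182) without piece 01.

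Both tested eotaxins, which draw eosinophils through Ccr3, were lower in KO. Ccl11 had 4.99, 5.17 and 8.41 CPM in KO and 22.4, 66.5, 46.5 and 64.3 CPM in KO + NM1, a log2 fold change of -3.01 (SE 0.40, adjusted p = 0.00183). Ccl24 had 0.0666, 0.625 and 0.132 CPM against 2.11, 11.3, 10.0 and 15.8 CPM, a log2 fold change of -5.14 (SE 0.89, adjusted p = 0.00601). In both, piece 01 was the lowest of the KO + NM1 pieces and still above the KO pieces. Ccr3 itself was below the filter, with at most 18 counts in a piece, and the 3 eosinophil markers (Siglecf, Prg2 and Epx) summed to 0.174 to 0.699 CPM in KO and 0.287 to 1.17 CPM in KO + NM1, with Epx at 0 in all pieces but KO + NM1 piece 01. Ccr10, the receptor for Ccl27 and Ccl28 on skin-homing T cells and plasma cells, had 0.166, 0.486 and 0.495 CPM in KO and 4.59, 1.83, 2.66 and 1.4 CPM in KO + NM1, a log2 fold change of -2.76 (SE 0.57, adjusted p = 0.00855).

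A pair of ligands known from mucosal epithelium was almost absent from KO. Cxcl15, which is best known from the lung, had no count in any KO piece and 1.38, 4.43, 5.08 and 3.94 CPM in KO + NM1, so it was at least 35.6-fold lower in KO against the floor of 3 counts per library. Cxcl17 had 0, 1 and 1 counts in KO and 53, 163, 69 and 288 counts in KO + NM1, a ratio of 264 between KO + NM1 and KO with a 95% counting interval from 72.8 to 2190. Both passed the test (adjusted p = 0.0016 and 0.00139). Markers of luminal mammary epithelium moved with them: Krt8 and Epcam were lower in KO, Krt18 was not called, and the 3 summed to 3.13 to 61.3 CPM in KO and 246 to 1110 CPM in KO + NM1, lowest in piece 01. The keratinocyte markers Krt5, Krt14 and Krt10 were not called, overlapped between the groups and were highest in KO piece 02 or KO + NM1 piece 04. Krt1, the other listed keratinocyte marker, did not pass the filter. It had 256 CPM in KO piece 02 and at most 0.599 CPM in any other piece. The part of epithelium in these levels was not tested. The other neutrophil-attracting ligands were low everywhere. Cxcl1 had 1.33, 1.67 and 2.28 CPM in KO and 3.75, 1.62, 0.987 and 0.452 CPM in KO + NM1 (log2 fold change 0.04, SE 0.68), and Cxcl2 had at most 0.656 CPM in a piece.

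**Figure D3:**
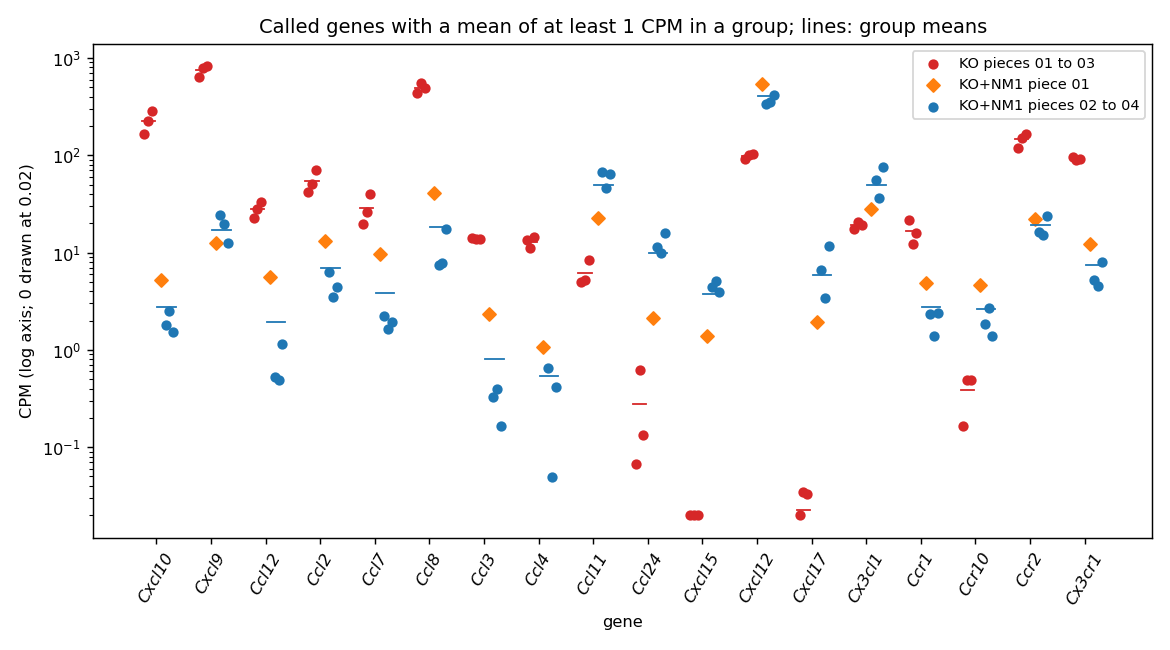
CPM (log axis) of 18 of the 19 called genes in every piece: KO (red), KO + NM1 piece 01 (orange diamonds) and KO + NM1 pieces 02 to 04 (blue), with lines at the group means and 0 drawn at 0.02. None of these genes overlaps between the groups, and of the KO + NM1 pieces piece 01 lies nearest to KO for Ccl2, Ccl7, Ccl12, Ccl8, Ccl11 and Ccl24, among others.

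Another set of members was high in KO + NM1 piece 01 alone. Ccl22, a ligand of mature dendritic cells, had 3.43, 3.61 and 3.26 CPM in KO and 364, 2.11, 3.06 and 0.205 CPM in KO + NM1, so piece 01 was 203 times the mean of the other KO + NM1 pieces. Its log2 fold change was -4.75 (SE 2.01, adjusted p = 0.144) with all pieces and turned to 0.81 (adjusted p = 0.347) without piece 01. Ccl17, the other CCR4 ligand, had 12.7 CPM in piece 01 and at most 0.451 CPM elsewhere, and Ccl20, the ligand of Ccr6, had 242 counts in piece 01 and 1 count in all other pieces together. The receptors of lymph node traffic showed the same piece. Ccr7 had 161 CPM in piece 01, 0.534 to 2.02 CPM in KO + NM1 pieces 02 to 04 and 3.61 to 4.55 CPM in KO. Cxcr5, which brings B cells to follicles, had 231 CPM in piece 01 and 1.4 to 3.51 CPM in the other pieces of both tumors. Ccr6 was at 51.8 CPM there and at most 0.857 CPM in any other piece, and Cxcr2 at 36.2 CPM against at most 0.833 CPM. None of these passed the test with all pieces, and Ccr7 was higher in KO by 1.35 (adjusted p = 0.0349) once piece 01 was left out. B cell markers stood with them: Cd79a, Cd79b, Ms4a1 and Pax5 had 1290, 783, 572 and 620 CPM in piece 01, and Cd79a, the highest of these, had at most 12.3 CPM in any other piece. Neutrophil markers summed to 57.0 CPM in piece 01, 26.7 to 32.1 CPM in KO and 7.06 to 9.87 CPM in KO + NM1 pieces 02 to 04. Of the 6, Csf3r was higher in KO (log2 fold change 2.08, adjusted p = 0.017). At 26.1, 27.6 and 31.0 CPM it made up most of the KO sums. S100a8 and S100a9 were not called, at means of 0.974 and 1.03 CPM in KO and 3.73 and 7.5 CPM in KO + NM1. Retnlg and Ngp, below the filter, had means of 0.0447 and 0 CPM in KO and 0.564 and 1.94 CPM in KO + NM1. These 4 markers were highest in piece 01, and Ly6g was at or near 0 in every piece. The part of B cells or other leukocytes in these levels was not tested.

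Leukocyte markers also set the T and NK cell receptors in context. The 6 T cell markers summed to 157 to 192 CPM in KO, 213 CPM in KO + NM1 piece 01 and 3.29 to 3.65 CPM in KO + NM1 pieces 02 to 04, and the 5 NK cell markers to 66.2 to 85.5, 70.9 and 4.83 to 8.41 CPM. Cxcr3, Cxcr6, Xcl1, Xcr1 and Ccl5 likewise were near or above the KO level in piece 01 and low in pieces 02 to 04. Dendritic cell markers (Flt3, Clec9a, Zbtb46, Itgax and Siglech) summed to 67.2 to 93.4 CPM in KO. Their sums were 147 CPM in piece 01 and 39.7 to 42.5 CPM in pieces 02 to 04. With all pieces only Zbtb46 was called, lower in KO (log2 fold change -1.33, adjusted p = 0.00156). General leukocyte markers (Ptprc, Cd52, Coro1a and Laptm5) summed to 745 to 845, 3080 and 103 to 146 CPM. Cd3e, a defining T cell gene, was at 19.9 to 23.9 CPM in KO, 6.19 CPM in piece 01 and at most 0.0493 CPM in the other KO + NM1 pieces. With all pieces 0 of the 6 T cell and 0 of the 5 NK cell markers were called, and without piece 01 all 6 and all 5 were higher in KO. Of all genes tested, 37.3% were called in either direction with all pieces, and 21.7% were higher without piece 01. Ccr9, a receptor of gut-homing and thymic T cells, had 1.56, 1.6 and 1.65 CPM in KO and 6.26, 0.0406, 0.0493 and 0.041 CPM in KO + NM1, but exons of Slc6a20a overlap it on the opposite strand. How far T cell, NK cell or dendritic cell content enters these levels was not tested.

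Of the 17 members left out by the filter, 6 had no count in any piece: Ccl26, Ccl27b, both scaffold copies of Ccl27 and 2 of the 3 genes named Ccl21b. Ccl20 was described with piece 01, and the other 10 (Ccl1, Ccr1l1, Ccr3, Ccr4, Ccr8, Cxcl3, Cxcl5, Cxcr1, Ccl21c and the third Ccl21b) had at most 21 counts in a piece. Copies of Ccl21 and Ccl27 are nearly identical, and the treatment of reads that map to several of them is not given in the sources used here, so their counts are uncertain. Ccl25, of thymus and gut, was tested and not called (log2 fold change 0.66, SE 0.26, adjusted p = 0.0672), and its exons overlap those of Elavl1 on the opposite strand. The same holds for Ccl27a with Il11ra1, Cxcr5 with Bcl9l and Xcl1 with Gm20743, and for all of these genes reads of the partner cannot be told apart without the strand setting.

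Compared per length, in TPM (counts divided by annotated exon length and scaled to a fixed sum), the tumors differed in which ligand led. Ccl8 made up 51.9% to 58.6% of the summed TPM of all member ligands in the KO pieces and Cxcl9 14.0% to 14.5%. In KO + NM1 pieces 02 to 04, Cxcl14 held 35.4% to 37.0%, followed by Ccl11 at 14.9% to 17.6% and Cxcl12 at 11.7% to 15.6%. Piece 01 resembled neither, with Ccl22 at 24.2%, Ccl5 at 23.0% and Ccl8 at 12.4%. The ligands together came to 5190, 6460 and 6380 TPM in KO and to 2020, 852, 528 and 1160 TPM in KO + NM1. Among receptors, Ccr2 and Cx3cr1 led in KO, with Ccr2 at 19.6% to 25.7% and Cx3cr1 at 20.5% to 23.9% of the receptor TPM. Cxcr4 held 46.6% to 62.7% in KO + NM1 pieces 02 to 04, while Ccr7 and Cxcr5 held 31.1% and 26.6% in piece 01. Shares of one sum depend on each other, so a high share of one gene lowers the rest.

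**Figure D4:**
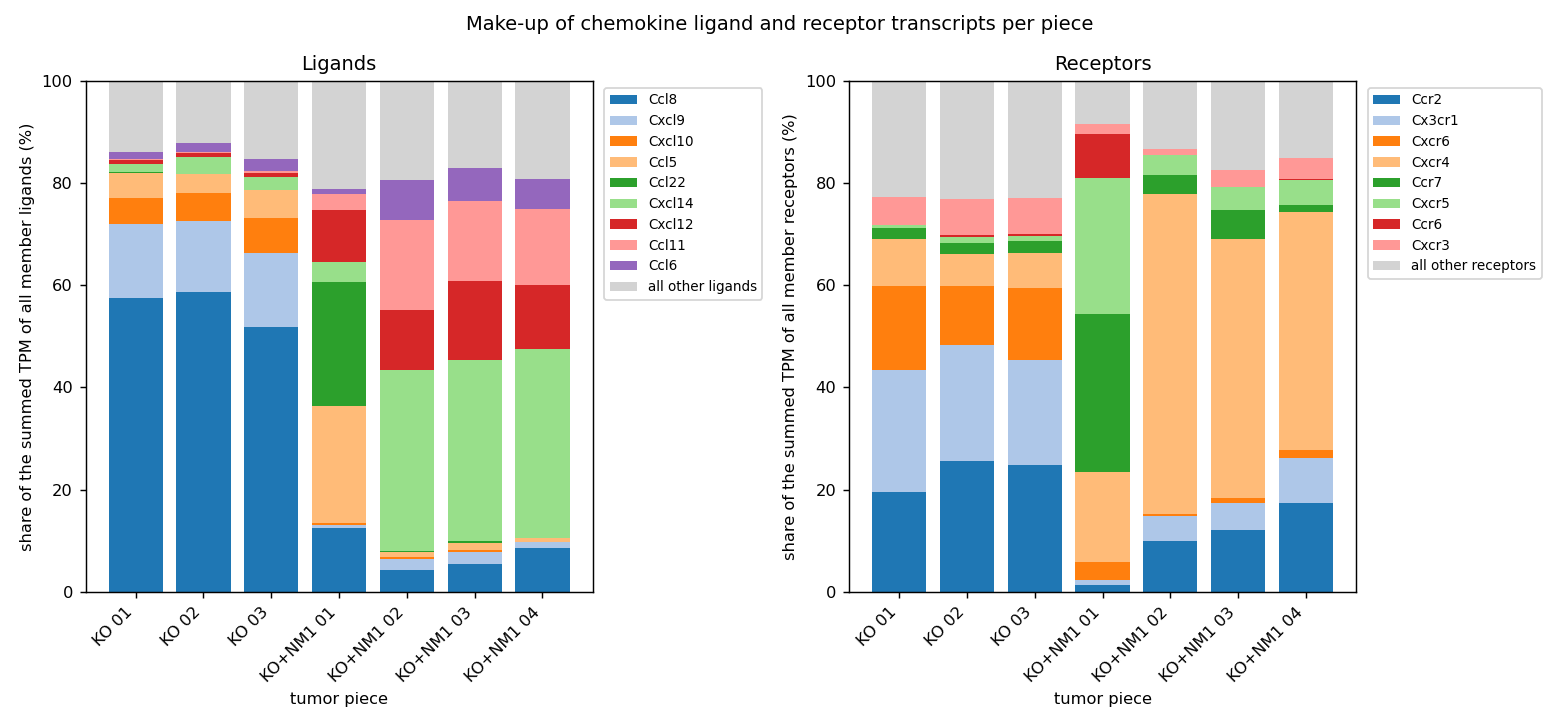
Share (%) of the summed TPM of all member ligands (left) and receptors (right) held by 9 ligands and 8 receptors, in every piece, with all others in grey. Ccl8 fills more than 50% of the ligand bar in each KO piece, Cxcl14, Ccl11 and Cxcl12 fill most of it in KO + NM1 pieces 02 to 04, and piece 01 is led by Ccl22 and Ccl5 and by Ccr7 and Cxcr5.

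Many of these genes lie side by side in the genome (GRCm38), 35 of the 58 within 250 kb of another member. On chromosome 11, from 82035571 to 82305690, the order is Ccl2, Ccl7, Ccl11, Ccl12, Ccl8 and Ccl1. Ccl11 was lower in KO by a log2 fold change of -3.01, while Ccl2, Ccl7, Ccl12 and Ccl8 on both sides of it were higher by 2.89 to 4.74. In the next group on the chromosome, from 83525778 to 83664683, the order is Ccl5, Ccl9, Ccl6, Ccl3 and Ccl4, of which Ccl3 and Ccl4 at one end were higher and the other 3 were not called. On chromosome 9 the receptors Ccr9, Cxcr6, Xcr1, Ccr1, Ccr1l1, Ccr3 and Ccr2 follow each other, from 123678439 to 124113557. Ccr1 and Ccr2 were higher with all pieces, and Ccr9, Cxcr6 and Xcr1 joined them without KO + NM1 piece 01. Ccl22, Cx3cl1 and Ccl17 share 66.4 kb of chromosome 8, and the middle gene, Cx3cl1, was the only one of the 3 called.

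**Figure D5:**
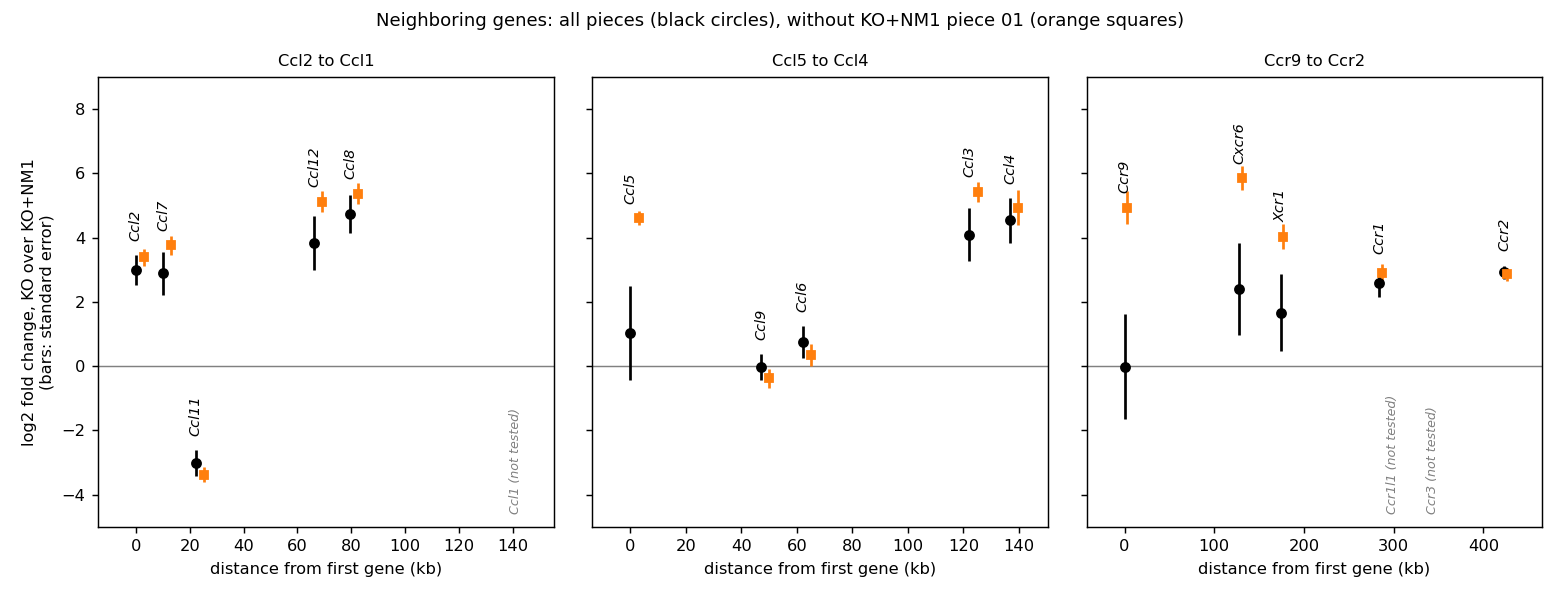
Log2 fold change (KO over KO + NM1) with its standard error against distance from the first gene in 3 gene clusters, with all pieces (black circles) and without KO + NM1 piece 01 (orange squares, set slightly to the right). Ccl11 lies below 0 between neighbors above 0, and the receptors at the Ccr9 end of the chromosome 9 cluster shift upward when piece 01 is left out.

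The wider pathway was counted from lists of genes that are no members. Of 9 atypical receptors and related ligands, 0 were higher in KO and 5 were lower, where 17.1% and 20.3% of all genes tested were called in these directions. Ackr1, the vessel-wall chemokine carrier, had a log2 fold change of -3.06 (SE 0.35, adjusted p = 0.00118), and the scavenger Ackr4 -3.49 (SE 0.67, adjusted p = 0.0075). Ackr3, the second receptor for Cxcl12, had -1.34 (adjusted p = 0.0366) and the platelet chemokine Pf4 -1.86 (adjusted p = 0.0237), with Ppbp the other lower gene, at 1.15 CPM or less in every piece. For Ackr3 and Pf4 the groups overlapped through piece 01. Endothelial markers, where Ackr1 is made, were lower too, 5 of 5, at sums of 161 to 180 CPM in KO and 877 to 1160 CPM in KO + NM1. The part of vessel content in the levels of Ackr1 was not tested.

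Of 24 genes of signalling below the receptors, 1, Rgs16, an inhibitor of G protein signalling, was higher in KO with all pieces (log2 fold change 2.37, SE 0.40, adjusted p = 0.00313), and 2 were lower, the arrestin Arrb1 (-1.24, adjusted p = 0.00259) and the receptor kinase Grk5 (-1.19, adjusted p = 0.00609). Without KO + NM1 piece 01, 14 were higher and 3 lower, where 21.7% and 25.1% of all genes tested were called. With all pieces the shares of all genes tested were again 17.1% and 20.3%, for these genes and for the lists that follow. Of 22 inducers of chemokine genes and their regulators, 18 were tested, with 5 higher and 1 lower. Ifng, the cytokine that induces Cxcl9 and Cxcl10, had 7.02, 7.46 and 10.2 CPM in KO and 0.473, 0.0812, 0.0493 and 0.164 CPM in KO + NM1, a log2 fold change of 5.35 (SE 0.66, adjusted p = 0.00127). Its downstream factor Irf1 (2.21, adjusted p = 0.00129) was also higher, and so were Csf1 and Irf7 (1.16 and 1.44, adjusted p = 0.00431 and 0.0473), although for Irf7 the groups overlapped. In piece 01 the sum of T cell markers was above the KO sums, but Cd3d, Cd3e and Cd3g were below every KO piece (4.81, 6.19 and 7.65 CPM). Ifng, Cxcl9 and Cxcl10 were far below KO there, although Ifng and Cxcl10 were highest in piece 01 among the KO + NM1 pieces. The part of T cell content in the Ifng level was not tested. Il33, an alarmin of stroma and vessels, was the lower gene of the list (log2 fold change -3.04, SE 0.25, adjusted p = 0.000448). Tnf, Il1a and Il1b were not called with all pieces and were higher in KO without piece 01. Of 9 carriers and proteases that bind or cut chemokines, Gpc1 (2.41, adjusted p = 0.000222) and Sdc3 (1.63, adjusted p = 0.0131) were higher, and Gpc3 (-2.72, adjusted p = 0.00951) and Dpp4, the peptidase that trims and inactivates several chemokines (-1.38, adjusted p = 0.0193), were lower.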

How the data were processed

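Total RNA of 7 tumor pieces was sequenced. Per the labels and the methods, the authors used Trimmomatic 0.36 for trimming, HISAT2 2.0.4 for alignment to GRCm38 and SAMtools 0.1.19 for sorting, and made the deposited raw read counts per gene with HTSeq-count. The strand setting and annotation release are not given in the sources used here. Symbols and exon lengths came from GENCODE M21, which named 46091 of 46603 genes, and promoter windows from RefSeq.

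Counts were filtered by filterByExpr (minimum count 10), normalized by TMM and compared, KO over KO + NM1, by the quasi-likelihood test of edgeR 4.0.16 in R 4.3.3, and p-values were adjusted by Benjamini-Hochberg across 16887 genes. Every adjusted p not otherwise named comes from this fit. Genes were called when the adjusted p was below 0.05 and log2 fold changes reached 1 or -1, after the study's thresholds, whose own test is not named. No 2 libraries were the same library (chi-square per degree of freedom 35.2 to 1050 over 21 pairs). Depth and the floor of 3 counts are given with the data.

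Members and lists were chosen with earlier results of these data known. Values per piece are given for called members with a mean of at least 1 CPM in a group and for the 6 uncalled members of highest TPM (Ccl5, Ccl6, Ccl22, Cxcl14, Cxcl16 and Cxcr4). Per-piece values of other members (such as Cxcr3, Cxcr6, Xcl1, Xcr1, Ccr9, Ccr7, Cxcr5 and Cxcl1) were added after their values were seen, as receptors or ligands of those named. In the pathway lists, the 4 called genes with the largest change and at least 1 CPM are named; Ppbp, Csf1, Irf7, Tnf, Il1a and Il1b were added after their values were seen. Alternatives were DESeq2 1.42.0, limma 3.58.1 voom with sample quality weights, other scalings and filters, glmTreat, a replicate block and leaving out each piece. A few genes counted in the totals are not reported here by name.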

Additional observations from a re-analysis of the deposited data

Results flagged for a closer look

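In the 4 KO + NM1 pieces, the distance from the most extreme piece to the next was divided by the whole range of log2 CPM for each of the 41 tested genes. For 9 of them it passed Dixon's 95% critical value for 4 samples, where chance alone gives about 1 in 20, or about 2 of 41, and the 41 genes are not independent. In 7 of the 9, piece 01 was the outermost and the highest. The ratio was 0.982 for Ccr9, 0.976 for Ccl17, 0.969 for Cxcr5, 0.959 for Cxcr2, 0.926 for Cxcl16, 0.908 for Ccl5 and 0.887 for Ccr6. The other flagged values were that of Cxcl2, with a ratio of 0.909 for a low piece 04, and that of Ccl25, with 0.838 for a low piece 02.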

How the results depend on the processing

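Of the 25 named members, 18 kept their direction and their call in every setting in which they were tested. The exceptions were Ccl7 and Cx3cl1, which lost their calls as described, Ccl5, Cxcl14, Cxcl16 and Cxcr4, which gained one in 1 or 2 settings, and Ccl22, whose log2 fold change turned to 1.19 with voom and quality weights and to 0.81 without KO + NM1 piece 01 (from -5.17 to 0.81 when 1 piece was left out). The count of higher members was 12 with all pieces, 21 with voom and quality weights and 11 to 20 when 1 piece was left out. The count of lower members was 7, but 10 with voom and quality weights, 9 with the DESeq2 Wald test and 6 to 10 when 1 piece was left out. It was 3 when 10 counts were asked for in every library, which left 26 members. Of the 18 members that kept their call, the filter of 10 counts left Ccl3, Ccl4, Ccl24, Ccr10, Cxcl15 and Cxcl17 untested. The median log2 fold change of the tested members, 0.04, was 1.28 with 10 counts in every library and 1.45 with voom, and ran from -0.13 to 2.09 over the pieces left out. For the tested receptors, a median of 0.82 became 2.18 with 10 counts in every library, 3.46 with voom, 2.54 with the replicate block and 0.42 to 2.89 with 1 piece left out, and for the ligands a median of 0.04 ran from -0.30 to 0.65 with 1 piece left out and from -0.38 (every gene with a count) to 0.85 (10 counts in every library) over the other settings. Among the settings that left out 1 piece, the highest count of higher members and the highest of each median came without KO + NM1 piece 01, and the cause of the other shifts was not tested. Of the pathway genes named, Irf7, Ackr3, Dpp4, Pf4, Ackr4, Sdc3 and Ppbp lost their calls in at least 1 setting. Their highest adjusted p was 0.243, 0.186, 0.0952, 0.0741, 0.0577, 0.0547 and 0.0529. The test against a 2-fold change (glmTreat) is not counted here for the pathway genes. The piece numbers are not known to pair the tumors, since same-numbered pieces deviated together at -0.0165 to 0.102, and among named members the replicate block changed only the call of Ccl7. The limit that a count of 0 allows bounds what can be said of Cxcl15 and of the members with few counts.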
